A study of Mus musculus with 9 samples.

Results

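Smooth muscle and contractile genes were followed through RNA-seq libraries of cultured mouse astrocytes. The genes were chosen by symbol. They are Acta2, Actg2, Myh11, Myl9, Cnn1, Cnn2, Tagln, Tpm1, Tpm2 and Des, and all 10 are among the 18061 genes listed in the deposited table. The cells were primary astrocytes from the cortex of wild-type C57BL/6 pups (P1), grown in medium with serum, and each of 3 groups had 3 samples whose titles call them biological replicates. Controls received no agent and spent 1 day without glucose. The acetate group had 10 mM sodium acetate during that glucose-free day. The Aβ plus acetate group also had 1 µM amyloid-beta (Aβ) for 5 days, from day 8 in culture, before harvest on day 12. All groups thus share the day without glucose. A group given Aβ without acetate was not analysed here, so Aβ could be compared only on top of acetate.

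The library names in the sample descriptions follow a pair of naming styles, which split the 9 libraries into library sets. To set 1 belong 4 libraries, those of the first sample of each group and of the second control. To set 2 belong the other 5, which are control 3 and both later samples of the acetate group and of the Aβ plus acetate group. What the sets stand for is not given in the labels. Depth implied by the steps between low values was 22150000 to 57010000 reads per library, and 13504 to 13723 genes per library had a CPM (a gene's count scaled to the library's total over the listed genes) of at least 1. Spearman correlations across genes were 0.992 to 0.997 between libraries of the same set and 0.905 to 0.935 between libraries of different sets. The astrocyte label was matched by its markers in every library. Gfap, the astrocyte intermediate filament, was at 4116 ± 562 CPM (SD, n = 4) in set 1 and 5633 ± 736 CPM (SD, n = 5) in set 2, and Slc1a3, Aqp4 and Aldh1l1 were listed at 194 CPM or more in each library.

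Smooth muscle cells contract when myosin II pulls on actin filaments. Calcium drives this by way of myosin light chain kinase, which phosphorylates the regulatory light chain. Calponins, transgelin and tropomyosins lie along the actin filament and tune that interaction, and desmin links the contractile units into a network. The transcription factor SRF drives many of these genes from a promoter element called the CArG box, together with the cofactors myocardin, MRTF-A and MRTF-B. In brain, mural cells of vessels are known for these genes. Cultured cells of several other kinds, fibroblasts and astrocytes among them, can also make Acta2, Tagln and Cnn2.

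The CArG box has a pair of C bases, a run of 6 bases that are A or T, and a pair of G bases. The 250 bases before the start of the gene were available from RefSeq (GRCm38.p6) for 7 of the 10 genes, namely Acta2, Cnn1, Cnn2, Des, Myl9, Tpm1 and Tpm2. The element reads alike on both strands as a pattern, and each window was searched for it. A full match was present in 2 of the 7, Cnn2 and Myl9, against 1.47% of 32841 promoters of the same length. With up to 1 change in the core of 6 bases, Acta2 joined them, and this looser pattern occurred in 8.59% of all promoters. The promoters of those 3 genes are shown because each holds a full match or a match with 1 change. The windows of Cnn1, Des, Tpm1 and Tpm2 held neither. Capitals mark the matches.
Acta2 (chr19:34255374-34255623, minus strand): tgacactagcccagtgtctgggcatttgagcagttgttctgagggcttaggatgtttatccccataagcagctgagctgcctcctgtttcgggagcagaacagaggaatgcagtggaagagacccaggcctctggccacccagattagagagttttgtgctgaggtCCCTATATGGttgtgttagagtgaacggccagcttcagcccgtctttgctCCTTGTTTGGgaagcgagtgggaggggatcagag
Cnn2 (chr10:79988350-79988599, plus strand): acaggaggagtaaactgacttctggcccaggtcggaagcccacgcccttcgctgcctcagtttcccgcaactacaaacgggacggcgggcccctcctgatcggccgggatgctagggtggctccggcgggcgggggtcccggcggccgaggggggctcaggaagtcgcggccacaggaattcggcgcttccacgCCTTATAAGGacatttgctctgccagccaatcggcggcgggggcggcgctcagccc
Myl9 (chr2:156775214-156775463, plus strand): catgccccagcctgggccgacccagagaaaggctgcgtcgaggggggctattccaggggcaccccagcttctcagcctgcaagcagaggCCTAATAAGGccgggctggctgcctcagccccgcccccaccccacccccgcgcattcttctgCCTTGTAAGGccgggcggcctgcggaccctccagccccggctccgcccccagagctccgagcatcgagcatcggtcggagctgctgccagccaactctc
The first base of the matches lay 84 and 34 bases before the start in Acta2, 56 bases before it in Cnn2, and 161 and 99 bases before it in Myl9. Both matches in Acta2 and the nearer match in Myl9 hold 1 change. Such a match describes the letters of the window and does not show that a factor binds there.

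All 10 genes were higher in set 1 than in set 2, whatever the treatment. The 10 genes together made up 0.441 to 0.556% of all CPM in the set 1 libraries and 0.0846 to 0.118% in the set 2 libraries. The ratio of the set means ran from 4.02 for Cnn2 to 146 for Actg2, and for none of the genes did the sets overlap. Of the 14058 genes tested, 3.34% had a ratio at least as large as that of Cnn2, and 29.5% had sets without overlap and set 2 the lower. The test was limma on log2(CPM + 1) with the treatment group in the model. P-values were adjusted by Benjamini-Hochberg over all tested genes with a threshold of 0.05. The test takes the libraries of a set as independent of each other. Each of the 10 genes was called lower in set 2, against 32.3% of tested genes called lower, 38.4% called higher and 70.6% called in either direction. Actg2 and Des passed the filter on low values (CPM of at least 1 in at least 3 libraries) through set 1, so their direction had to follow.

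**Figure D1:**
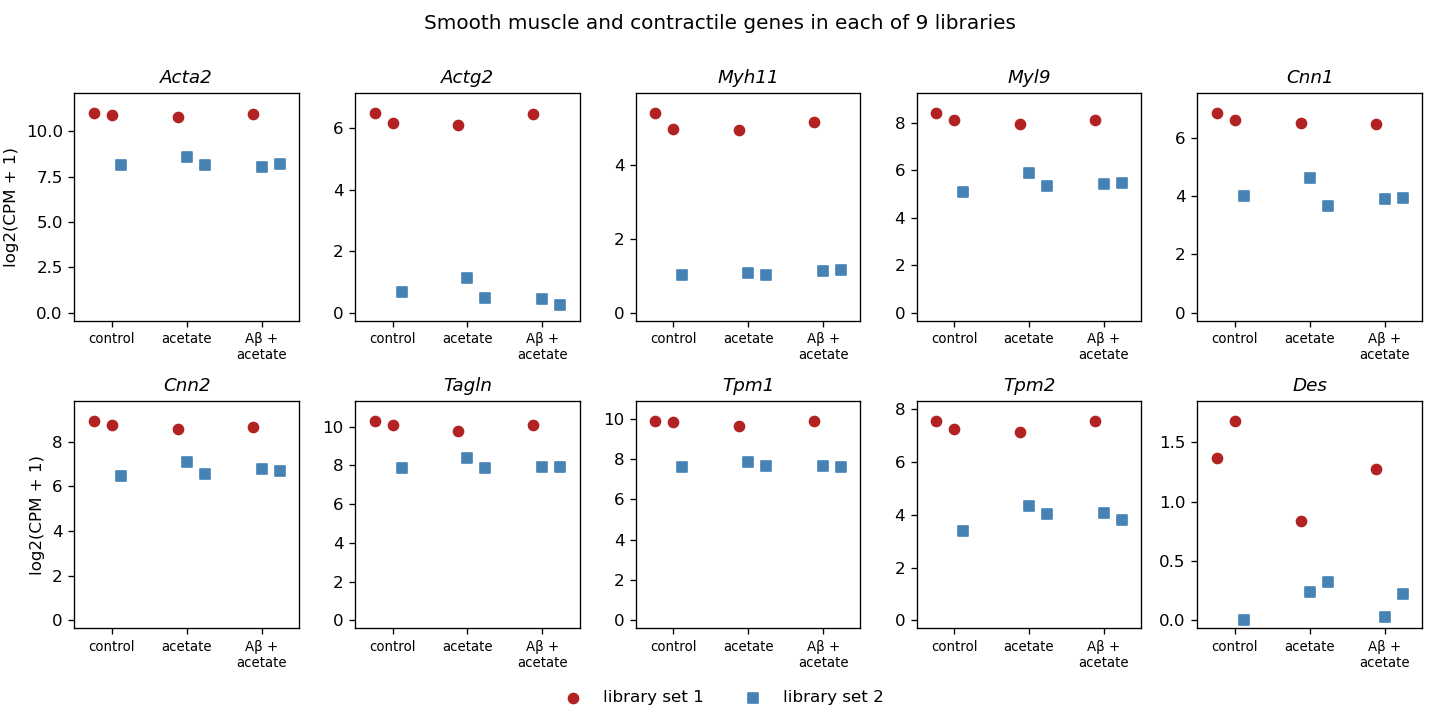
Level of each contractile gene in each of 9 libraries, as log2(CPM + 1) on the vertical axis, by treatment group on the horizontal axis. Red circles are the 4 libraries of set 1 and blue squares the 5 of set 2, and in each of the 10 panels all circles lie above all squares.

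Both smooth muscle actins were lower in set 2. Acta2, smooth muscle α-actin (mm10, chr19:34240336-34255374, minus strand), had 2081, 1883 and 276 CPM in control 1 to 3, 1780, 384 and 279 CPM in acetate 1 to 3, and 1962, 265 and 288 CPM in Aβ plus acetate 1 to 3. The 4 high libraries are those of set 1, and the 5 low ones those of set 2. Its mean was 1927 ± 127 CPM (SD, n = 4) in set 1 and 299 ± 48.6 CPM (SD, n = 5) in set 2, a log2 difference of -2.70 (SE 0.11, adjusted p = 2.93e-09 by limma). Actg2, smooth muscle γ-actin (chr6:83512909-83536252, minus strand), had 90.0, 72.1 and 0.591 CPM in controls, 68.1, 1.19 and 0.390 CPM with acetate, and 88.2, 0.355 and 0.188 CPM with Aβ plus acetate. It stood clearly above 1 CPM in set 1 and near or under it in set 2. Actg2 passed the filter through set 1, so its direction had to follow. Its log2 difference was -5.71 (SE 0.17, adjusted p = 2.98e-10 by limma), and this size depends on the pseudocount, being -7.07 with a pseudocount of 0.1 and -3.91 with 5.

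The cytoplasmic actins, which every cell uses, were also lower in set 2 but by less. Actb had a log2 difference of -1.09 (SE 0.10), from 2774 CPM in set 1 to 1299 CPM in set 2. Actg1 had -0.88 (SE 0.08), from 2047 to 1092 CPM. Acta1, the skeletal α-actin, had -1.47 (SE 0.12), at 2.38 CPM in set 1 and 0.157 CPM in set 2. Acta1 passed the filter through set 1, so its direction had to follow. The 3 tested genes of the 4 other actins had a median of -1.09, against 0.050 for all tested genes. Whether Acta2 and Actb differ from each other in their contrast was not tested.

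Myh11 and Myl9 are parts of smooth muscle myosin. Myh11, the smooth muscle myosin heavy chain (chr16:14194527-14291409, minus strand), had 41.2, 30.4 and 1.01 CPM in controls, 29.5, 1.12 and 1.03 CPM with acetate, and 34.8, 1.18 and 1.24 CPM with Aβ plus acetate. The 5 set 2 libraries were at 1.12 ± 0.0947 CPM (mean and SD) and the 4 set 1 libraries at 34.0 ± 5.37 CPM. The log2 difference was -4.02 (SE 0.12, adjusted p = 2.27e-10 by limma), or -2.65 with a pseudocount of 5. Myl9, the regulatory light chain (chr2:156775464-156781658, plus strand), had 341, 276 and 33.1 CPM in controls, 243, 58.0 and 39.1 CPM with acetate, and 275, 41.4 and 42.8 CPM with Aβ plus acetate. Its lowest set 1 library was 4.18 times its highest set 2 library. The log2 difference was -2.73 (SE 0.15, adjusted p = 3.37e-08 by limma).

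Around myosin II, 7 of 12 genes were called lower in set 2 and 2 higher, beside 32.3% and 38.4% of all tested genes. Their median log2 difference was -0.38. Mylk, myosin light chain kinase, had the largest contrast of the list, at 120 CPM in set 1 and 1.24 CPM in set 2 (log2 difference -5.76, SE 0.14). The light chains used outside muscle had log2 differences of -1.23 for Myl6, -1.02 for Myl12a and -0.61 for Myl12b. The kinase Rock1 was 1 of the 2 called higher, by 0.54.

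The calponins and transgelin bind actin and were lower in set 2 by 4.02 to 6.20 times in their means. Cnn1, the calponin of differentiated smooth muscle (chr9:22099253-22109222, plus strand), had 115, 97.2 and 15.0 CPM in controls, 89.8, 23.5 and 11.8 CPM with acetate, and 87.6, 14.0 and 14.3 CPM with Aβ plus acetate. Its log2 difference was -2.55 (SE 0.16, adjusted p = 1.08e-07 by limma). Cnn2, the calponin made in many cell types (chr10:79988600-79995401, plus strand), had 489, 432 and 87.4 CPM in controls, 377, 136 and 91.3 CPM with acetate, and 398, 110 and 103 CPM with Aβ plus acetate. It had the smallest ratio of the 10 genes, and its log2 difference was -2.01 (SE 0.13, adjusted p = 1.42e-07 by limma).

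Tagln, transgelin or SM22α (chr9:45929628-45936059, minus strand), had 1265, 1078 and 229 CPM in controls, 880, 329 and 229 CPM with acetate, and 1096, 241 and 239 CPM with Aβ plus acetate. The sets stood apart by a factor of at least 2.68 between their nearest libraries, with a log2 difference of -2.07 (SE 0.13, adjusted p = 1.15e-07 by limma). Of the 100-base stretches of its annotated transcripts, 48.3% also occur on other annotated genes in either orientation, nearly all on the antisense gene Gm48529. For Des this share was 3.28%, from the antisense gene Gm15179, and for the other 8 genes it was 0%. No source used here states whether strand was used in counting. Reads from the shared stretches therefore cannot be assigned between Tagln or Des and their antisense partners.

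The relatives of these genes that are common outside muscle did not share one direction. Cnn3 was called higher in set 2 (log2 difference 0.22, SE 0.07), at 1659 CPM in set 1 and 1914 CPM in set 2. Tagln2 was called higher as well, at 0.50 (SE 0.10). Of the 5 relatives of calponin, transgelin and tropomyosin, 3 were called higher and 2 lower, beside 38.4% and 32.3% of all tested genes. Their median was 0.22.

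The tropomyosins wind along the actin filament. Tpm1, α-tropomyosin (chr9:67022593-67049214, minus strand), had 954, 902 and 194 CPM in controls, 808, 232 and 203 CPM with acetate, and 958, 201 and 191 CPM with Aβ plus acetate. It varied least within set 2, at 204 ± 16.1 CPM (SD, n = 5), among the genes above 100 CPM there, and its log2 difference was -2.14 (SE 0.09, adjusted p = 2.47e-09 by limma). Tpm2, β-tropomyosin (chr4:43513726-43523555, minus strand), had 187, 151 and 9.51 CPM in controls, 138, 19.0 and 15.5 CPM with acetate, and 186, 15.7 and 13.1 CPM with Aβ plus acetate. Its set means stood 11.4 times apart, with a log2 difference of -3.52 (SE 0.16, adjusted p = 7.36e-09 by limma). Tpm4, common outside muscle, had -1.46 (SE 0.09), from 428 to 156 CPM, and Tpm3 had -0.29 (SE 0.06), from 239 to 196 CPM.

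Des, desmin, the intermediate filament of muscle (chr1:75360292-75368580, plus strand), was at the edge of detection. It had 1.58 and 2.21 CPM in control 1 and 2 and was listed at 0 in control 3. With acetate it had 0.784, 0.178 and 0.253 CPM, and with Aβ plus acetate 1.43, 0.0222 and 0.169 CPM. All set 2 libraries lay below the lowest set 1 library, and the log2 difference was -1.08 (SE 0.17, adjusted p = 0.000138 by limma), with -2.96 at a pseudocount of 0.1 and -0.32 at 5. Des passed the filter through set 1, so its direction had to follow. The other intermediate filaments mostly went the other way. Of 5 tested, 4 were called higher in set 2, among them Gfap (0.39, SE 0.10), Vim (0.29, SE 0.09) and Nes (0.41, SE 0.08). The share called higher over all tested genes was 38.4%.

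**Figure D2:**
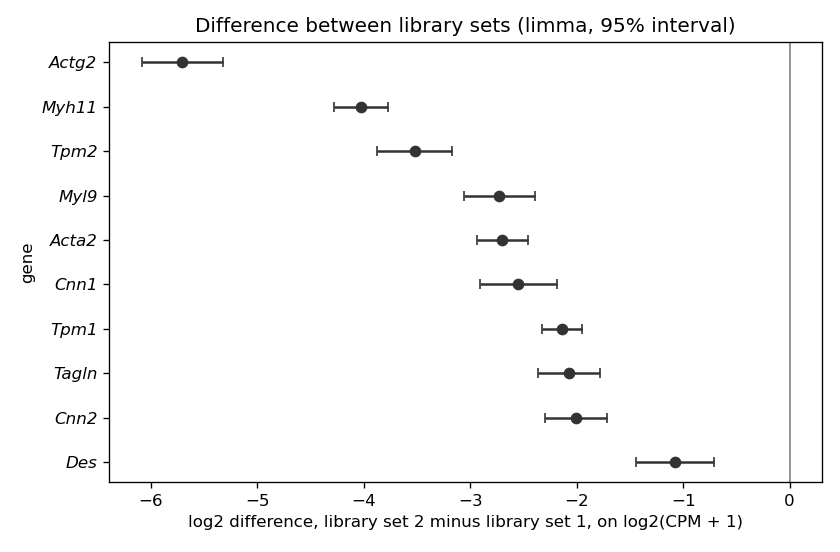
Difference between library sets for each contractile gene, set 2 minus set 1, on the log2(CPM + 1) scale (horizontal axis), from limma with the treatment group in the model. Points are estimates and bars their 95% intervals, from -5.71 for Actg2 to -1.08 for Des, and no bar reaches 0. Actg2 and Des passed the filter on low values through set 1, so their direction had to follow.

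Ordered by the ratio of set means, the genes ran Actg2 (146), Myh11 (30.5), Des (12.1), Tpm2 (11.4), Myl9 (6.62), Acta2 (6.45), Cnn1 (6.20), Tpm1 (4.43), Tagln (4.27) and Cnn2 (4.02). Neighbours in this order were compared with a two-sided exact permutation test of the log2 ratio of the 2 genes in each library between the sets, with a pseudocount of 0.1, where 126 arrangements allow no p under 0.0159. Tpm2 and Myl9 had the smallest p allowed (exact p = 0.0159, 0.0476 after adjustment over the 9 pairs). That adjusted value leans on Actg2 with Myh11 and on Myh11 with Des, which had the same exact p. Without those pairs it would be larger, and the order was taken from the same values. Tpm2 and Myl9 are therefore not said to differ. The places of Actg2 and Des are given as a description alone, because both passed the filter through set 1 and their set 2 values are near the limit of detection. Myl9, Acta2 and Cnn1 did not differ from their neighbours among themselves beyond the spread (adjusted p = 0.762 for both pairs, exact permutation), nor did Tpm1 and Tagln (0.694) or Tagln and Cnn2 (0.452). Cnn1 and Tpm1 missed the threshold at 0.0714 (adjusted, exact permutation).

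Levels of different genes were compared as CPM per kb of annotated exon. The length is the union of all annotated exons of a gene, such as 6485 bases for Tpm1 and 2909 for Tpm2. A single transcript need not hold them all, so levels of genes with alternative exons can be understated. On this scale Acta2 was the highest of the 10 in set 1, at 877 ± 57.8 CPM per kb (SD, n = 4), beside 1035 ± 110 for Actb and 976 ± 133 for Gfap. Tagln followed at 543, Myl9 at 244, Cnn2 at 172 and Tpm1 at 140 CPM per kb. Tpm2 at 56.9, Actg2 at 51.1 and Cnn1 at 35.6 CPM per kb formed a lower tier, and Myh11 at 4.47 and Des at 0.400 CPM per kb were the lowest. In set 2 Acta2 was at 136 and Tagln at 127 CPM per kb, while Actb was at 485 CPM per kb. Within each set 2 library Acta2 lay above Tagln, except in Aβ plus acetate 2, where both were at 121 CPM per kb. There Actg2 (0.349) lay above Myh11 (0.147) by less than its own SD of 0.251 CPM per kb.

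Other genes known from smooth muscle were lower in set 2 in part. Of 15 tested out of 18 listed, 10 were called lower and none higher, beside 32.3% and 38.4% of all tested genes. Their median log2 difference was -1.45, which is the value of Ppp1r14a. Itga8, Mrvi1 and Ppp1r14a among them passed the filter through set 1 and could only be lower. Of the other 12 tested, 7 were called lower. The middle values of those 12 were nearer 0, at -1.14 for Csrp1 and -0.93 for Kcnmb1. Beside Mylk, the integrin subunit gene Itga8 had -5.19 (SE 0.15; 69.5 and 0.951 CPM), and Mrvi1, a substrate of cGMP-dependent kinase, had -4.37 (SE 0.13; 25.8 and 0.313 CPM). Cald1, caldesmon, which binds actin and tropomyosin, had -1.66 (SE 0.08; 1374 and 436 CPM). Smtn and Lmod1, fixed as further smooth muscle markers, had -1.76 and -2.71, while Synpo2 missed the threshold (-0.22, adjusted p = 0.0525 by limma).

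Known targets of SRF and MRTF were lower in set 2. All 16 tested were called lower, against 32.3% of all tested genes, with a median of -1.37. Ankrd1 passed the filter through set 1, and the other 15 did not depend on it. Ccn2, a matricellular protein, had -3.95 (SE 0.15; 3555 and 232 CPM), Vcl, vinculin of cell adhesions, -1.85 (SE 0.08), Fhl2, a LIM-domain cofactor, -3.57 (SE 0.17), and Filip1l -4.16 (SE 0.14). Srf itself was at 54.2 and 44.4 CPM (-0.22, SE 0.09, adjusted p = 0.0478 by limma). Mrtfa had -0.68 (SE 0.09; 40.9 and 25.3 CPM), and Mrtfb had 0.037 (SE 0.070), which was not called. Myocd, the gene of myocardin, averaged 0.609 CPM in set 1 and 0.0919 CPM in set 2 and was too low to be tested.

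TGF-β is known to raise smooth muscle genes in many cells. Of 15 genes of its pathway, 8 were called lower in set 2 and 4 higher, beside 32.3% and 38.4% of all tested genes. Their median log2 difference was -0.38. The ligand gene Tgfb3 had -2.49 (SE 0.12; 181 and 32.0 CPM), and Ltbp1 and Ltbp2 of the latent TGF-β binding protein family had -2.20 and -2.62. The receptor gene Tgfbr1 and the signal carrier Smad2 were called higher, by 0.79 and 0.78.

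Most markers of pericytes and of fibroblasts and meninges moved with the contractile genes. Summed pericyte markers were at 584 to 728 CPM in set 1 and 112 to 149 CPM in set 2. Called lower were 7 of 8 tested, and 1, Anpep, was called higher (14.9 and 32.5 CPM). Over all tested genes, 32.3% were called lower and 38.4% higher. Heyl and Vtn passed the filter through set 1, and without them 5 of 6 were called lower. Pdgfrb was at 228 and 50.0 CPM and Rgs5 at 104 and 6.14 CPM, while Kcnj8 (0.151 and 0.00563 CPM) and Abcc9 (0.559 and 0.0506 CPM), defining genes of brain pericytes, were near 0 in both sets. Summed fibroblast and meningeal markers were at 1305 to 1451 CPM in set 1 and 125 to 210 CPM in set 2, with 10 of 12 called lower and 1, Pdgfra, higher. Lum and Mgp passed the filter through set 1, and without them 8 of 10 were called lower. Col1a1 was at 359 and 16.0 CPM, Dcn at 18.3 and 1.56 CPM and Lum at 1.60 and 0.142 CPM.

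Astrocyte markers summed to 8775 to 10247 CPM in set 1 and 11151 to 13415 CPM in set 2, with 6 of 11 called higher and 5 lower. Over all tested genes, 38.4% were called higher and 32.3% lower. Markers of skeletal and cardiac muscle summed to 4.73 to 6.14 CPM in set 1 and 3.75 to 4.96 CPM in set 2, and 9 of the 12 were under 1 CPM in all 9 libraries. Myod1 and Myog, which define skeletal muscle, were listed at 0 in 7 of 9 libraries each. Oligodendrocyte markers summed to 731 to 935 CPM in set 1 and 218 to 322 CPM in set 2, with 3 of 6 called lower and 1 higher. Olig1, at 561 and 66.2 CPM, carried most of that sum, while Mbp was higher in set 2 (2.49 and 17.9 CPM). Microglial markers summed to 152 to 233 and 330 to 512 CPM, endothelial markers to 36.6 to 42.6 and 39.9 to 55.7 CPM, and neuronal markers to 400 to 518 and 410 to 471 CPM, each for set 1 and then set 2. Of 9 microglial markers tested, 8 were called higher in set 2 and 1 lower, and 1 of the 9 passed the filter on low values through set 2. Of 3 endothelial markers tested, 2 were called higher and 1 lower. The part of these cell types in the difference of the contractile genes was not tested. In such bulk libraries fewer cells of a type and less RNA per cell cannot be told apart.

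**Figure D3:**
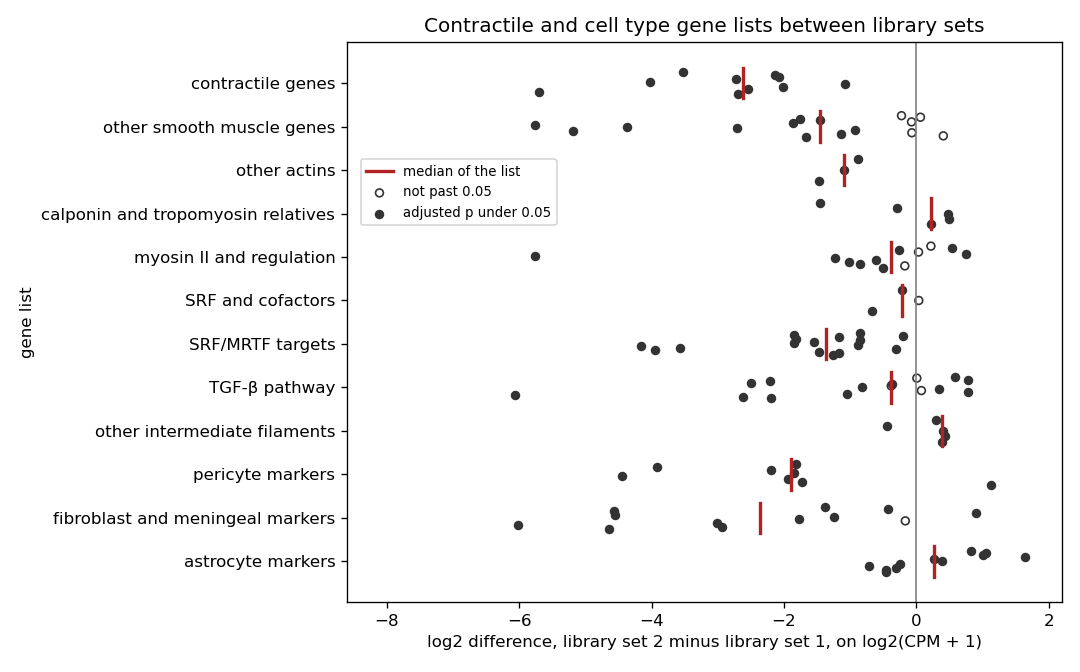
Difference between library sets for the genes of 12 lists, set 2 minus set 1, on the log2(CPM + 1) scale (horizontal axis), 1 list a row. Filled circles have an adjusted p under 0.05 by limma, open circles do not, and red bars are list medians, up to 0.39 for the other intermediate filaments. The bar of the 10 contractile genes (-2.62) includes Actg2 and Des, which passed the filter on low values through set 1. The bar of the other smooth muscle genes likewise includes Itga8, Mrvi1 and Ppp1r14a.

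Between treatments no contractile gene was called. Because control 1 and control 2 but only 1 library of each other group belong to set 1, plain group means follow the sets. Acta2 averaged 1414 ± 990 CPM in controls, 814 ± 838 CPM with acetate and 838 ± 973 CPM with Aβ plus acetate (SD, n = 3 each). Treatment differences were therefore taken from limma with the library set in the model. No gene of the 14058 tested was called in any of the 3 treatment comparisons (0% called), while 453, 436 and 505 genes had an unadjusted p under 0.05 for acetate against control, Aβ plus acetate against acetate, and Aβ plus acetate against control. Every group holds libraries of both sets, so for these genes the groups had to overlap. The 3 comparisons share libraries, so their values are not independent of each other.

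Acetate against control asks what acetate adds in the absence of glucose. The log2 difference of Acta2 was 0.065 (95% interval -0.23 to 0.36), that of Tagln -0.053 (-0.41 to 0.30), that of Myl9 0.079 (-0.32 to 0.48) and that of Tpm1 0.0014 (-0.22 to 0.23). The largest in size was Tpm2, at 0.27 (-0.16 to 0.69), and the lowest was Des, at -0.19 (-0.64 to 0.25). Cnn1 (-0.046), Cnn2 (0.011), Actg2 (0.019) and Myh11 (-0.11) lay between them. The median of the 10 was 0.0064, beside -0.023 for all tested genes, and the adjusted p was 1.00 for each by limma. Without the library set in the model, all 10 differences were below 0, from -1.88 for Actg2 to -0.55 for Des, and still none was called (adjusted p = 0.936 for each by limma).

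The fitted differences near 0 came from opposite directions in the library sets. Within set 1 acetate was below control for 10 of 10 genes, by -0.69 to -0.15 on the log2 scale. Within set 2 it was above control for 10 of 10, by 0.044 to 0.79. Set 1 holds 1 acetate library and set 2 holds 1 control, so each count rests on 1 library shared by all 10 genes. Tpm2 had -0.28 in set 1 and 0.79 in set 2, and Myl9 had -0.34 and 0.51. Of all tested genes, 61.6% were below control in set 1, 49.1% were above it in set 2, and 34.5% did both. The difference between the sets was tested as an interaction in limma, with 3 residual degrees of freedom, and none of the 10 was called. Their adjusted p ran from 0.347 for Tpm2 to 0.859 for Cnn1, and 0 of the 14058 genes were called, with 1016 at an unadjusted p under 0.05.

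In set 2 the size of this difference rested largely on acetate 2 for several genes, and less so for Tpm2 and Des. That library was the highest of set 2 for 8 of the 10 genes, all but Myh11 and Des, and exceeded the mean of the other set 2 libraries by 1.17 times for Tpm1 to 3.14 times for Actg2 among those 8. Its fibroblast and meningeal markers summed to 210 CPM, against 125 to 150 CPM in the other set 2 libraries, and its pericyte markers to 143 CPM, within their range of 112 to 149 CPM. Its oligodendrocyte (322 CPM) and microglial (512 CPM) sums were also the highest of set 2, while its astrocyte, endothelial and neuronal sums were not. The part of these in the difference was not tested. Without acetate 2, 8 of the 10 genes still lay above control within set 2, several by little. The difference was then 0.012 for Acta2, 0.0025 for Tagln and 0.058 for Tpm1, and -0.33 for Cnn1 and -0.19 for Actg2. Myl9 (0.23), Tpm2 (0.65) and Des (0.32) kept larger differences above 0, beside 0.51, 0.79 and 0.28 with acetate 2. For these genes control 3, the only control of set 2, was the lowest library of that set, at 33.1, 9.51 and 0 CPM. The interaction without acetate 2, with 2 residual degrees of freedom, called 0 genes, and the smallest adjusted p of the 10 was 0.552 by limma.

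Aβ plus acetate against acetate asks what Aβ adds to acetate. The log2 differences ran from -0.18 for Actg2 (95% interval -0.62 to 0.26) to 0.14 for Myh11 (-0.16 to 0.43). Acta2 had -0.12 (-0.40 to 0.16), Cnn1 -0.16 (-0.58 to 0.25), Tagln -0.024 (-0.36 to 0.32) and Tpm2 -0.022 (-0.43 to 0.39). Of the 10 genes, 8 were below 0, with a median of -0.023 beside 0.020 for all tested genes, and the adjusted p was 1.00 for each by limma. Without acetate 2 the same 8 lay above 0, from 0.058 for Acta2 to 0.19 for Tagln, so the sign of these small differences depends on that library. Within set 1, 9 of the 10 genes were above acetate, and within set 2, 9 of 10 were below it, or 5 of 10 without acetate 2. In the other direction, 1 of the 10 genes and 42.6% of all tested genes were below acetate in set 1. Above it in set 2 were 1 of the 10 genes and 56.4% of all tested genes. Set 1 holds 1 library of each of these groups. The interaction with the library set called 0 genes, with 518 at an unadjusted p under 0.05.

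Aβ plus acetate against control combines both agents. The log2 differences ran from -0.21 for Cnn1 (95% interval -0.64 to 0.22) to 0.25 for Tpm2 (-0.18 to 0.67). Acta2 had -0.050 (-0.34 to 0.24), Tagln -0.077 (-0.43 to 0.28), Myl9 0.023 (-0.38 to 0.42) and Myh11 0.029 (-0.28 to 0.34). Their median was -0.031, beside -0.0049 for all tested genes, and the adjusted p was 0.999 for each by limma. Within the sets, 7 of 10 were below control in set 1 and 7 of 10 above it in set 2, beside 55.2% and 52.5% of all tested genes. Set 1 holds 1 Aβ plus acetate library and set 2 holds 1 control. The interaction called 0 genes, with 692 at an unadjusted p under 0.05. An adjusted p over the threshold does not show that the levels were alike, and the intervals of the 10 genes over the 3 comparisons allow log2 differences down to -0.64 and up to 0.69.

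**Figure D4:**
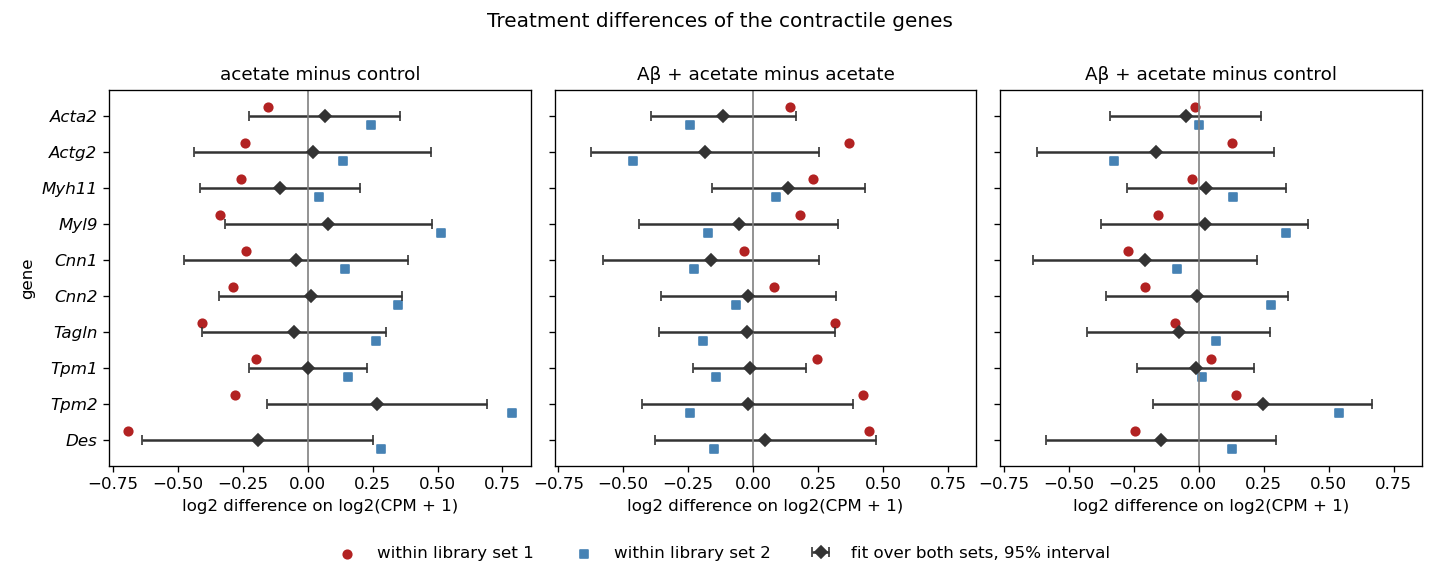
Treatment differences of the 10 contractile genes on the log2(CPM + 1) scale (horizontal axis) in 3 comparisons. Diamonds with bars are limma estimates over both library sets with 95% intervals, all of which cross 0. Red circles and blue squares are the differences within set 1 and set 2. They lie on opposite sides of 0 for all 10 genes in acetate minus control. Set 1 holds 1 acetate library and set 2 holds 1 control.

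Genes of the other lists were not called between treatments either, in any of the 3 comparisons. The other smooth muscle genes had medians of 0.025, 0.040 and 0.042 in acetate against control, Aβ plus acetate against acetate, and Aβ plus acetate against control. The SRF and MRTF targets had medians of -0.057, 0.076 and 0.023 in the same order.

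The pattern of Acta2 over the 9 libraries was compared with that of each of 14057 other tested genes by Pearson's r on log2(CPM + 1), as a description. The closest were Col4a2 (r = 0.9994) and Col4a1 (0.9990), which encode chains of basement membrane collagen, with Pigc (0.9993), Sdhc (0.9993) and Tgfb3 (0.9991). Actg2 ranked 12th, Tpm1 13th and Des 2264th. These points share the library sets, which set most of each r. After the mean of each set was taken from both genes, the closest were Sdhc (0.979), Szrd1 (0.975), Col4a2 (0.958), Gsx1 (0.956) and Tgfb3 (0.954). Of the contractile genes Tagln came next to Acta2 on that measure (0.911, rank 19), followed by Cnn1 (0.887), Myl9 (0.870), Actg2 (0.849), Tpm1 (0.830) and Cnn2 (0.800), whereas Tpm2 (0.636), Myh11 (0.341) and Des (0.309) followed it less. Within sets, acetate 2 is the library in which Acta2 stands farthest from the rest of set 2, at 384 CPM against 265 to 288 CPM.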

How the data were processed

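Poly(A)-enriched RNA was sequenced as paired reads in 9 libraries. The authors deposited CPM per gene, which sum to 1000000 in each library. STAR 2.7.3a, Partek and FastQC are the tools in the submitters' processing notes, which give both mm10 and GRCm39 as builds and no role for any of them. The counter, the annotation and the strand setting are not given in the sources used here. Of 17613 symbols found in GENCODE M21 (mm10), 99.8% overlapped their deposited position, so deposited positions are printed as mm10. Between 93.5% and 94.4% of values worth up to 20 implied reads were whole within 0.1 reads, so no count model was used. A second deposited table of standardised scores was not used.

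The 14058 genes that reached a CPM of 1 in 3 or more libraries were tested on log2(CPM + 1), with limma 3.58.1 in R 4.3.3, a trended and robust prior, group and library set as terms, all 9 libraries in 1 fit, two-sided, with Benjamini-Hochberg adjustment over all tested genes. The interaction of group and set was a second fit. The code was tested on simulated data. Low values understate fold changes on this scale. P-values rest on samples that the titles call biological replicates. The library names carry number 2 in set 1 alone, and numbers 3 and 4 in set 2 alone. Control 1 has no number. If libraries with the same number share an origin, p-values and SEs of the set comparison do not cover the spread between origins. Whether they do is not given in the labels.

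The 10 genes and all lists were chosen with earlier results of these data known. Named genes were the 10, up to 4 genes with the smallest p in the set comparison of each of the 9 contractile pathway lists, markers fixed for each cell type, and the 5 genes closest to Acta2 by each measure. One gene that this rule names is not reported here. Smtn, Lmod1 and Synpo2 were fixed as smooth muscle markers. Rock1, Smad2, Tgfbr1, Ppp1r14a, Csrp1, Kcnmb1, Ankrd1, Anpep, Heyl, Vtn and Mgp were named after their values were seen. A gene passed the filter through set 1 where fewer than 3 set 2 libraries had a CPM of at least 1. The CArG search and the comparison of neighbouring genes were made in Python 3.11.15.

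Title numbers were checked for pairing. Same-numbered samples deviated together (r over 0.1) in 7 of 9 pairs by title number, from -0.842 to 0.947. By library-name number this held in 7 of 7 pairs (0.761 to 0.947), where both samples of a pair always share a library set, and in 0 of 7 once set means were taken out. Taking out set means itself pulls r below 0 on average among the few libraries of a set. Whether the library-name number marks pairing beyond the set therefore cannot be told from these values. Alternatives were pseudocounts, filters, median-of-ratios scaling, limma without trend and robust prior, fits without the set or group, blocks by either number, the 6 libraries of a comparison alone, and each library left out in turn. The interaction fit without acetate 2 was chosen after seeing the data.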

Additional observations from a re-analysis of the deposited data

Results flagged for a closer look

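In library set 2, 4 of the 10 contractile genes had 1 library far above the other 4, by Dixon's criterion at the 95% level, and it was acetate 2 each time. Acta2 was at 384 CPM there, with the next library at 288 CPM and a gap of 0.807 of the range. Tagln was at 329 CPM with the next at 241 CPM (0.881 of the range). Cnn1 was at 23.5 CPM with the next at 15.0 CPM (0.724), and Tpm1 at 232 CPM with the next at 203 CPM (0.719). Among 20 combinations of gene and library set tested, these 4 stood out, where chance gives about 1 in 20. The genes are measured in the same libraries, so the 4 are not independent of each other. The fibroblast and meningeal markers in sum were also highest in acetate 2 within set 2, at 210 CPM against 125 to 150 CPM. Oligodendrocyte and microglial markers summed highest there too, at 322 and 512 CPM, while pericyte, astrocyte, endothelial and neuronal markers did not. The part of any of these in the values of the contractile genes was not tested.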

How the results depend on the processing

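The lower level of all 10 genes in library set 2 kept its direction and its call under each alternative in which the gene was tested. Des was not tested at a mean CPM of at least 5. With the block by library-name number the set difference was not estimated, because each number lies within a single set. Leaving out any library left 10 of 10 called. The counts over all genes ran from 4711 to 5555 higher and 3870 to 4609 lower with a library left out. They dropped to 2528 higher and 2218 lower with a replicate block by title number beside the set. There title number 1 lies wholly in set 1 and title number 3 wholly in set 2, so that comparison rests on number 2 alone. No replicate block changed the call of any of the 10 genes, and no treatment comparison or interaction called a gene under any alternative. Treatment differences are small, and their signs turned often (log2 scale throughout). For acetate against control they turned with a pseudocount of 0.1 for Des (0.26), with a pseudocount of 5 for Actg2 (-0.052), and in the 6 libraries alone for Tpm1 (-0.022) and Actg2 (-0.053). Without the set in the model they turned for Acta2 (-0.83), Cnn2 (-0.66), Myl9 (-0.83), Tpm1 (-0.71), Tpm2 (-0.91) and Actg2 (-1.88), where the groups hold the sets in unequal numbers. The title block turned Acta2 (-0.0019), Cnn2 (-0.085), Myl9 (-0.024), Tpm1 (-0.043) and Actg2 (-0.17), and the library-name block Tagln (0.094), Cnn1 (0.14) and Myh11 (0.016). Left-out libraries gave -0.079 to 0.24 for Acta2, -0.19 to 0.29 for Actg2, -0.29 to 0.14 for Cnn1, -0.24 to 0.18 for Cnn2, -0.49 to 0.16 for Des, -0.21 to 0.014 for Myh11, -0.22 to 0.35 for Myl9, -0.24 to 0.21 for Tagln, -0.080 to 0.17 for Tpm1 and -0.058 to 0.65 for Tpm2. For Aβ plus acetate against acetate a pseudocount of 0.1 turned Des (-0.26), and one of 5 turned Tpm2 (0.0065) and Actg2 (0.029). Left-out libraries gave -0.25 to 0.058 for Acta2, -0.40 to 0.068 for Actg2, -0.38 to 0.13 for Cnn1, -0.15 to 0.18 for Cnn2, -0.21 to 0.17 for Des, -0.26 to 0.17 for Myl9, -0.22 to 0.19 for Tagln, -0.14 to 0.084 for Tpm1 and -0.31 to 0.16 for Tpm2. For Aβ plus acetate against control the turned values were 0.0023 for Des at a pseudocount of 0.1, -0.012 for Myh11 at 5, and 0.036 for Cnn2 and 0.029 for Tpm1 in the 6 libraries alone. Without the set they were -0.89 for Myl9, -0.93 for Tpm2 and -1.31 for Myh11. The title block gave -0.080 for Myl9, -0.067 for Myh11 and 0.0063 for Des, and the library-name block 0.040 for Acta2, 0.070 for Tagln, 0.15 for Cnn2, 0.050 for Tpm1 and 0.017 for Actg2. Left-out libraries gave -0.14 to 0.0034 for Acta2, -0.26 to 0.089 for Cnn2, -0.072 to 0.15 for Myh11, -0.28 to 0.16 for Myl9, -0.26 to 0.017 for Tagln, -0.11 to 0.029 for Tpm1 and -0.080 to 0.39 for Tpm2. Beyond the settings given here, the cause of a turn was not tested. Depth limits Des and, in set 2, Actg2 and Myh11.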
